A study of Homo sapiens with 26 samples.

Results

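Mitochondrial ribosomal protein genes were taken as the protein-coding genes whose symbol begins with MRPL or MRPS followed by a number. There were 78 of them among 20044 protein-coding genes, 49 named for the large (MRPL) and 29 for the small (MRPS) ribosomal subunit, and they lay on 21 chromosomes. The libraries were poly(A) RNA-Seq of HCT116, a human colorectal carcinoma line, and held the RNA of lysates cleared by centrifugation, so RNA in the pellet was not counted. Cells expressed mCherry-IGF2BP1, a tagged RNA-binding protein, as WT (wild-type) or as one of 3 mutants: S181E and Y396E, in which a glutamic acid takes the place of a serine or a tyrosine in the linkers of the protein, and RQ, with arginines of linker 1 changed to glutamine. The paper detected phosphorylation of the serine in cells, and of the tyrosine only on recombinant protein treated with the kinase Src. Each was studied in control cells given PBS and in cells given 500 µM sodium arsenite for 2 hours, with 3 independently plated dishes per group (8 groups, 24 libraries). All 4 populations shared the same IGF2BP2 KO, IGF2BP3 KO, Tet-OsTIR1-PURO background. The transgene was carried by a lentivirus under the PGK promoter, and each population was sorted once through a narrow mCherry gate, so a mutation and its population cannot be told apart. Parental HCT116 cells gave 1 control and 1 arsenite library, described without a test. The comparisons asked how stress and the linker mutations change transcript levels.

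The mitochondrial ribosome makes the few proteins encoded by mitochondrial DNA, all of them core parts of the oxidative phosphorylation machinery. Its rRNAs come from the mitochondrial genome, but its proteins are encoded in the nucleus, made in the cytosol and imported. Some of these proteins descend from bacterial ribosomal proteins and carry their numbers, while others have no bacterial counterpart and were added during the evolution of mitochondria. The symbol does not always give the place of a protein: the products of MRPS30 and MRPS18A sit in the large subunit, and the MRPS36 product is now known as a subunit of the 2-oxoglutarate dehydrogenase complex.

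Promoter windows of 300 bases, from 250 before to 50 after the transcription start (RefSeq, build GRCh38.p14), matched 69 of the 78 genes. The letters CCGGAAG, the core bound by ETS factors such as GABPA, stood on either strand in 29 of these windows (42%) and in 14.4% of 15345 protein-coding promoters. The YY1 letters AAGATGGC stood in 20 windows (29%), against 3.97% of all promoters. The NRF1 core GCGCATGC was in 6 windows (8.7%, against 4.25%), and the E-box CACGTG, the site of MYC and related factors, in 6 (8.7%, against 8.89%). ETS or YY1 letters were present in 41 windows and both in 8, in none of which the matches overlapped (0 of 69), while 25 windows held none of the 4 motifs. These matches are a description of letters in a window. Printed here are 4 windows, 5′ to 3′ on the strand of the gene and with every motif match in capitals, for the genes with a large fall after arsenite (MRPL33, MRPL20), the largest rise (MRPS31) and the highest level (MRPS34). MRPL33 lies at chr2:27771469-27771768 on the + strand, MRPL20 at chr1:1407244-1407543, MRPS31 at chr13:40771141-40771440 and MRPS34 at chr16:1773085-1773384, all 3 on the - strand.
MRPL33: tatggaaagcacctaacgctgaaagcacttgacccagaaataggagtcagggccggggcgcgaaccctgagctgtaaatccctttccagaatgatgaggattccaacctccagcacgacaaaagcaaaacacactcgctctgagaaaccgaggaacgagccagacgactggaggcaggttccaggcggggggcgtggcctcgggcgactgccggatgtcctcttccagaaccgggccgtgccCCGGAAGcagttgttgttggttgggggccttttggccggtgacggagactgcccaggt
MRPL20: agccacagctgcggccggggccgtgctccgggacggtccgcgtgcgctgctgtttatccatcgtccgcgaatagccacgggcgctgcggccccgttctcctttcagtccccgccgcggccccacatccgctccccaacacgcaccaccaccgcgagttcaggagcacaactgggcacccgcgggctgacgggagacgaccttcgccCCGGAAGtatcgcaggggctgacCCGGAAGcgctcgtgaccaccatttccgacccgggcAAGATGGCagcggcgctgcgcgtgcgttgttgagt
MRPS31: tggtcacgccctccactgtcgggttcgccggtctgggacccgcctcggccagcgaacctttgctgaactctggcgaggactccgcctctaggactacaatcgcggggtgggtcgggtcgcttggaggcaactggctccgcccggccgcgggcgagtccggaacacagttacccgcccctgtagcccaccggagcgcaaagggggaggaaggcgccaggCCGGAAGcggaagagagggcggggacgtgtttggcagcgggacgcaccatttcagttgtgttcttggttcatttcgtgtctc
MRPS34: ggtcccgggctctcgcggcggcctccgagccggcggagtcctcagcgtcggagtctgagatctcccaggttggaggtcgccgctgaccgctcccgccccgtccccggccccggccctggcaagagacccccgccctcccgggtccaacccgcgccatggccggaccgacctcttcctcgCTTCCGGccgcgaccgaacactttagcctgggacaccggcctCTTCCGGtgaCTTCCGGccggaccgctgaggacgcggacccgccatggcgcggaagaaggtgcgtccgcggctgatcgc

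The MRPL33 and MRPS31 windows each had 1 ETS match. The MRPL20 window had 2 ETS matches and 1 YY1 match, and the MRPS34 window had 3 ETS matches, all on the opposite strand as CTTCCGG. The motifs were found in genes of both directions of response: of the 25 windows of genes lower after arsenite in all 4 populations, 11 held ETS and 6 YY1 letters, and of the 3 windows of genes higher in all 4, 1 held ETS and 1 YY1 letters.

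Total counts over genes of all types ran from 22508145 to 50834401 per library. Levels are given as CPM, the read count scaled to a fixed total of protein-coding counts, with TMM factors. The epithelial markers EPCAM (305 to 486 CPM), KRT8, KRT18 and KRT19 were high in every library. In contrast, KRT20 (median 1.71 CPM) and VIL1 (median 0.0518 CPM) were near 0 and CEACAM5 was at 0 in 25 libraries. Markers of blood, endothelial and stromal cells were at or near 0 except COL1A1 (6.46 to 11.4 CPM). IGF2BP1 transcripts had 10.5 to 14.5 CPM in WT, 12 to 15.4 CPM in RQ, 17.1 to 20.1 CPM in S181E and 15.1 to 17.4 CPM in Y396E control libraries. After arsenite they had 27.5 to 29.6, 45.6 to 47.3, 42.2 to 43.5 and 41.8 to 44.1 CPM in the same order. Parental cells had 0.343 CPM in control and 0.637 CPM after arsenite. Comparisons of a mutant with WT were thus made at unlike transgene transcript levels, except RQ in control cells, where the ranges overlapped. The part of these levels in the results was not tested. The third Y396E arsenite library had counts for 13897 genes and every other library for at least 20850, so calls that end without it are given both ways where the gene is described. Counts of genes of the mitochondrial genome made up 21.09% to 26.87% of WT control, 23.14% to 27.91% of RQ control, 11.66% to 14.26% of S181E control and 12.35% to 17.15% of Y396E control libraries, and 7.55% to 13.53% after arsenite. The protein-coding totals used for scaling include the protein-coding genes of chromosome M. Scaling factors computed without chromosome M and a stretch of chromosome 8 were tried. Beyond this, the part of these counts in the results below was not tested.

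Of the 78 genes, 73 (47 large, 26 small) passed the filter of more than 10 CPM in at least 12 of the 24 libraries, together with 9099 protein-coding genes in all. Compared per kilobase of exon, these genes were expressed above most others: their median level in WT control cells was 54.8 CPM per kb, against 10.5 CPM per kb over all tested genes, and 68 of the 73 stood above the latter value. Their exons were shorter (median 1625 against 3931 bases) and of like GC content (48.3% against 48.7%). The level per kb was highest for MRPS34, a small subunit protein without bacterial counterpart (191 CPM per kb), then MRPL18 and MRPL41 (179.7 CPM per kb). Among tested genes it was lowest for MRPS25 (2.03 CPM per kb).

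The 5 genes under the filter were MRPL2, MRPL46, MRPS5, MRPS24 and MRPS28. MRPS24 (0.156 CPM per kb) and MRPS5 (0.334 CPM per kb) had the lowest levels of all 78. Both share most of their exon bases with another gene on the same strand, 81.1% for MRPS24 and 74% for MRPS5, and reads in shared exons were not counted for either gene, so their levels are uncertain. The shared part was 46.2% for MRPL46 and 34.8% for MRPL2. MRPL46 had 2.99 to 3.81 CPM in WT control and 2.41 to 3.13 CPM in WT arsenite libraries, and was at 0 in the third Y396E arsenite library. MRPL2 had 7.68 to 8.43 CPM in WT control and 9.02 to 10.3 CPM in WT arsenite libraries. In all, 16 genes shared exon bases on the same strand with another gene, MRPL12 (69.5%) included, and 36 had annotated pseudogenes, 79 in total. Reads that align equally well to a gene and its pseudogene were not counted.

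After arsenite, most transcripts of the set that changed were lower. In WT cells 35 of the 73 genes fell and 9 rose, where a call needed an adjusted p-value under 0.05 (edgeR quasi-likelihood test, Benjamini-Hochberg over all tested genes) and a change over 1.2-fold, and the other 29 were not called. Over all tested genes 35.9% were called lower and 36.3% higher, so the share of these genes that fell (47.9%) was above, and the share that rose (12.3%) below, the background. In bulk RNA, fewer expressing cells and less RNA per cell cannot be told apart, and each value is relative to the other transcripts of its library. The median log2 change was -0.23 for the large and -0.27 for the small subunit, against -0.01 over all genes. Among large subunit genes 22 fell and 4 rose (46.8% and 8.51% of 47), and among small subunit genes 13 fell and 5 rose, out of 26. With MRPS30 and MRPS18A counted as large and MRPS36 left out, an assignment added after the data were seen, 22 of 49 large genes fell and 5 rose (median -0.17), and 12 of 23 small genes fell and 4 rose (median -0.31).

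These counts depend on the scale and on transcript properties. On library totals alone (protein-coding counts without TMM factors) the median of all genes in WT cells moved to 0.14. On these totals 25 genes were called lower and 14 higher, with medians of -0.07 (large) and -0.11 (small). Of the counts of all gene types, a wider total, the 78 genes made up 0.566% to 0.595% in WT control and 0.588% to 0.601% in WT arsenite libraries. Protein-coding genes held 89.63% to 91.72% of that wider total in WT control and 97.27% to 97.36% in WT arsenite libraries. The lower level on the TMM scale is thus a fall relative to the other tested transcripts. After a trend of the change on exon length and GC content over all genes was removed, 22 genes were lower and 17 higher in WT cells, with medians of -0.02 (large) and -0.06 (small) against -0.03 over all genes. On this scale the medians of the set lay near that of all genes. Shares of all tested genes called were taken only in the main fit. The counts on library totals and with the trend removed thus stand without a background. The falls of MRPL33 (-0.30) and MRPL14 (-0.33) were smaller there and MRPL12 (-0.17) was not called, whereas MRPL57 (-0.80), MRPL20 (-0.51), MRPS17 (-0.69) and MRPS16 (-0.61) were still called lower and MRPS31 (1.41), MRPS9 (1.04) and MRPS30 (0.79) higher. Spearman's rho of the WT change with exon length was 0.18 over the 73 genes and 0.18 over all 9099, and with GC content -0.33 and -0.05 (across genes, which are not independent).

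**Figure D1:**
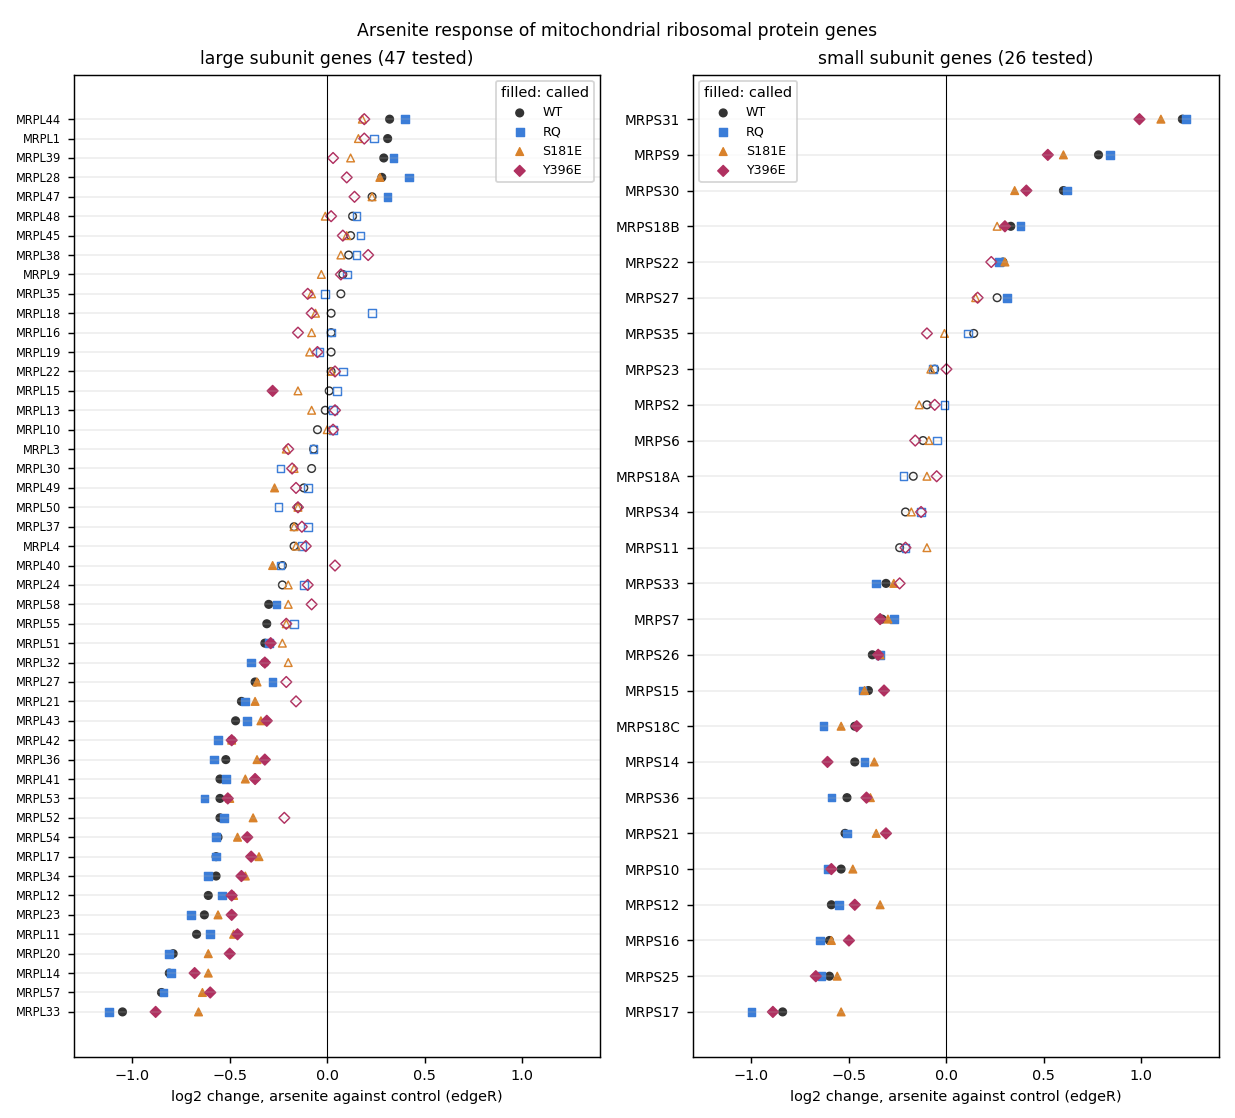
Log2 change after arsenite (x axis, edgeR) of each tested mitochondrial ribosomal protein gene (y axis) in the 4 populations, large subunit left and small subunit right; filled points were called. Most called points lie left of 0, and MRPS31 stands apart on the right at 0.99 to 1.23.

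The largest fall was that of MRPL33, the homolog of bacterial L33. Its levels in the 3 WT control libraries were 75.6, 91.8 and 78.2 CPM, and in the 3 WT arsenite libraries 40.1, 39.5 and 39.1 CPM, a log2 change of -1.05 (SE 0.10, edgeR adjusted p = 7.28e-10). MRPL57, a large subunit gene without bacterial counterpart and with 5 annotated pseudogenes, had 98, 106 and 93.1 CPM in control and 52.1, 55.3 and 56.6 CPM in arsenite libraries (log2 change -0.85, SE 0.05, adjusted p = 1.1e-13). In both genes all arsenite libraries lay well below all control libraries. MRPL14, whose protein lies at the subunit interface, had 129, 159 and 132 CPM in control and 77.2, 81.2 and 81.2 CPM in arsenite libraries (-0.81, SE 0.07, adjusted p = 1.31e-10). MRPL20, with 20.9% of its exon bases shared with a 7SL pseudogene on the same strand, had 149, 163 and 149 CPM in control and 90.4, 89.1 and 88.2 CPM in arsenite libraries (-0.79, SE 0.05, adjusted p = 1.62e-13). MRPL12, the homolog of the bacterial L7/L12 stalk protein, was also lower (-0.61, SE 0.07).

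In the small subunit MRPS17 fell most, from 13.5, 12.9 and 13.1 CPM in WT control to 7.98, 7.4 and 6.67 CPM in WT arsenite libraries (log2 change -0.84, SE 0.10, adjusted p = 3.69e-08). It is a gene of low level that shares 26.4% of its exon bases with another gene and has 4 annotated pseudogenes. MRPS16, the homolog of bacterial S16, had 158, 174 and 161 CPM in control and 109.8, 110.1 and 106 CPM in arsenite libraries (-0.60, SE 0.05, adjusted p = 9.82e-11). MRPS25 had 19, 21.5 and 22.9 CPM in control and 13.2, 13.4 and 15.3 CPM in arsenite libraries (-0.60, SE 0.12, adjusted p = 6.46e-05). The groups did not overlap in any of these 3 genes. MRPS12, whose protein forms part of the decoding centre, fell by 0.59 on the log2 scale (SE 0.09).

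Against this direction, MRPS31 rose more than any other gene of the set. Its levels were 16.1, 14.4 and 15.7 CPM in WT control and 35, 37.4 and 34.9 CPM in WT arsenite libraries, a log2 change of 1.21 (SE 0.07, edgeR adjusted p = 1.02e-13), and every arsenite library lay above every control library in all 4 populations. MRPS31 encodes a small subunit protein without bacterial counterpart and has 4 annotated pseudogenes. MRPS9, the homolog of bacterial S9, went from 39.5, 34.4 and 40.6 CPM to 64.7, 66.2 and 65.7 CPM (0.78, SE 0.07, adjusted p = 3.19e-10). MRPS30, whose protein belongs to the large subunit, went from 73.7, 69.4 and 75.7 CPM to 105, 113 and 114 CPM (0.60, SE 0.07, adjusted p = 1.8e-08). Neither gene's control and arsenite libraries overlapped. Rises of large subunit genes were smaller: MRPL44, a protein with an RNase III-like fold, had 0.32 (SE 0.07), MRPL1 0.31 (SE 0.05), MRPL39 0.29 (SE 0.09) and MRPL28 0.28 (SE 0.08) on the log2 scale in WT cells.

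**Figure D2:**
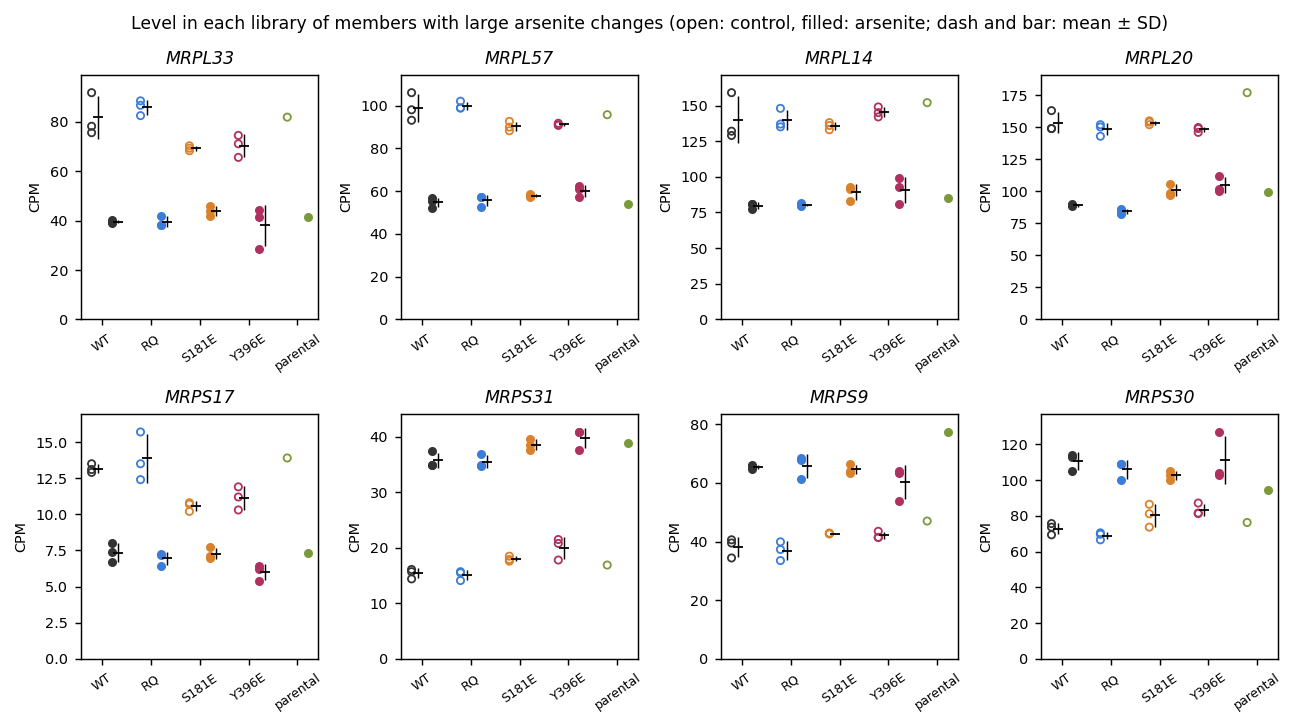
Levels (CPM, y axis from 0) of 8 genes with large responses in each library of the 4 populations and the parental cells; open points are control, filled points arsenite libraries, the dash and bar mean and SD of 3 libraries. MRPS31 is higher, and MRPL33 lower, in every arsenite library than in any control library of the same population.

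The 3 paralogs of bacterial S18, chosen for description after their values were seen, did not move together. MRPS18B, which had 107, 103 and 106 CPM in WT control and 135, 129 and 132 CPM in WT arsenite libraries, rose (log2 change 0.33, SE 0.05). MRPS18C, with 57.7, 62.4 and 53.7 CPM in control and 42.3, 41.8 and 41.7 CPM in arsenite libraries, fell (-0.47, SE 0.07). MRPS18A was not called (-0.17), with 63.5, 65.9 and 61.7 CPM against 59.4, 54.8 and 55.7 CPM. The MRPS18C protein holds the S18 place in the small subunit, the MRPS18B protein sits elsewhere in it, and the MRPS18A protein belongs to the large subunit. All 3 have annotated pseudogenes.

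The falls were shared by the other populations, each compared with its own control libraries. In RQ cells 34 of the 73 genes fell and 10 rose (background 35.8% lower and 37.1% higher), with medians of -0.24 in both subunits against -0.01 over all genes. In S181E cells 33 fell and 5 rose (background 33.3% and 32%), with medians of -0.20 (large) and -0.22 (small) against -0.03. In Y396E cells 30 fell and 4 rose (background 32.9% in each direction), with medians of -0.16 and -0.23 against -0.03. No large subunit gene was called higher in Y396E cells (0 of 47), where 13 of the 47 lay above 0 and the highest log2 change was 0.21. In either direction 33 of the 47 had an unadjusted p under 0.05, and DESeq2 called the same total of 34 genes over both subunits. All of these Y396E counts include the third Y396E arsenite library, and leaving it out gave 24 lower and 7 higher over both subunits. MRPL28, the large subunit gene that rose in S181E cells, had 62, 59.3 and 62.5 CPM in Y396E control and 75.6, 70.0 and 51.7 CPM in Y396E arsenite libraries. Leaving out 1 library at a time moved the small subunit median in Y396E cells between -0.29 and -0.10.

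By subunit, 21 large and 13 small subunit genes fell in RQ cells and 4 and 6 rose, 20 and 13 fell in S181E cells and 1 and 4 rose, and 18 and 12 fell in Y396E cells and 0 and 4 rose. With the length and GC trend removed the counts of lower and higher genes were 24 and 18 in RQ, 17 and 11 in S181E and 21 and 12 in Y396E cells, and the median of the large subunit in RQ cells turned to 0.02. On library totals they were 24 and 16 in RQ, where the median of all genes moved to 0.16, 28 and 7 in S181E and 25 and 6 in Y396E cells.

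In all 4 populations 27 genes were called lower and 3 (MRPS31, MRPS9 and MRPS30) higher, and 24 were called in none. Of all tested genes 26.4% were lower and 27.9% higher in all 4. No gene of the set was called in opposite directions in 2 populations. Of the 27 lower genes 21 were also called lower in all 4 populations on library totals, 23 without the third Y396E arsenite library (not MRPL34, MRPS7, MRPS21 and MRPS26) and 14 with the length and GC trend removed, where 6 were above 0 in at least 1 population. The 3 higher genes were called higher in all 4 under each of these settings. Genes higher in all 4 then numbered 5 on library totals, 5 without the third Y396E arsenite library and 8 with the trend removed. MRPL33 had log2 changes of -1.12 in RQ, -0.66 in S181E and -0.88 in Y396E cells (-0.69 without the third library). With the trend removed these were -0.36, -0.10 and -0.34, and the change in S181E cells was not called (edgeR adjusted p = 0.221). Its Y396E arsenite libraries had 41.5, 44.1 and 28.6 CPM, the third being the library with few genes. MRPS31 had 1.23 in RQ, 1.10 in S181E and 0.99 in Y396E cells. MRPS17 had -0.54 in S181E and -0.89 in Y396E cells. MRPS14, with the largest fall of small subunit genes in Y396E cells after MRPS17 and MRPS25, had -0.61 there (SE 0.16, edgeR adjusted p = 0.00131). This value rested on the third library: the levels were 29.7, 28.8 and 28.5 CPM in control and 23.8, 22.7 and 10.7 CPM in arsenite libraries. Without that library the change was -0.30 (adjusted p = 0.000393), and with only the groups compared in the fit it was -0.59 and not called (adjusted p = 0.0791).

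The 27 genes with a fall in every population were MRPL11, MRPL12, MRPL14, MRPL17, MRPL20, MRPL23, MRPL33, MRPL34, MRPL36, MRPL41, MRPL42, MRPL43, MRPL53, MRPL54 and MRPL57 of the large subunit and MRPS7, MRPS10, MRPS12, MRPS14, MRPS15, MRPS16, MRPS17, MRPS18C, MRPS21, MRPS25, MRPS26 and MRPS36 among the small subunit symbols. A further 19 genes were called in 1 to 3 populations. Of these 8 were higher (MRPL1, MRPL28, MRPL39, MRPL44, MRPL47, MRPS18B, MRPS22 and MRPS27) and 11 lower (MRPL15, MRPL21, MRPL27, MRPL32, MRPL40, MRPL49, MRPL51, MRPL52, MRPL55, MRPL58 and MRPS33). The 24 genes called in none had log2 changes between -0.25 and 0.23 over the 4 comparisons, and included genes of high level such as MRPL3, MRPL18 and MRPS34. MRPL3, for example, had 199, 196 and 201 CPM in WT control and 185, 194 and 188 CPM in WT arsenite libraries (-0.07). A change that misses the call does not show that a level stayed the same.

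The 2 parental libraries, labelled with no transgene and no deletion, gave values of like size without a test. Past 1.2-fold, 37 of the 73 genes were lower and 6 higher after arsenite, against 36% and 34.9% of all genes, and the medians were -0.25 (large) and -0.29 (small) against -0.03. All 27 genes lower and all 3 genes higher in the 4 populations were past 1.2-fold in the same direction in parental cells. MRPS31 had 16.9 CPM in the control and 39 CPM in the arsenite library, and MRPL33 had 81.9 and 41.3 CPM.

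Summed over all 78 genes, the level in WT cells was 6902.2 ± 241 CPM in control and 5917.4 ± 49.2 CPM in arsenite libraries (SD, n = 3). The second WT control library had the highest sum, 7176.4 CPM. Within each library the summed level of the large subunit was divided by that of the small subunit, a ratio that no scaling of the library can change. Control libraries of WT cells had a ratio of 1.93 ± 0.028, those of RQ cells 1.91 ± 0.008, those of S181E cells 1.90 ± 0.008 and those of Y396E cells 1.89 ± 0.005 (SD, n = 3). In the same order, arsenite libraries had 1.80 ± 0.013, 1.80 ± 0.004, 1.79 ± 0.009 and 1.81 ± 0.024. All 12 control libraries (1.89 to 1.97) lay above all 12 arsenite libraries (1.78 to 1.83), and the parental libraries had 1.91 and 1.82. Without the genes of chromosome 8 described below, the ranges were 1.85 to 1.91 and 1.73 to 1.79. The separation over all libraries depended on the assignment by symbol. With MRPS30 and MRPS18A counted as large and MRPS36 left out, control libraries had 2.16 ± 0.027 (WT), 2.13 ± 0.014 (RQ), 2.11 ± 0.014 (S181E) and 2.12 ± 0.011 (Y396E), and arsenite libraries 2.08 ± 0.019, 2.07 ± 0.010, 2.04 ± 0.011 and 2.08 ± 0.051 (SD, n = 3). Control and arsenite libraries then still did not overlap within WT, RQ or S181E cells, but the third Y396E arsenite library (2.133) lay above all Y396E control libraries (2.10 to 2.12), and the ranges over all populations overlapped.

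**Figure D3:**
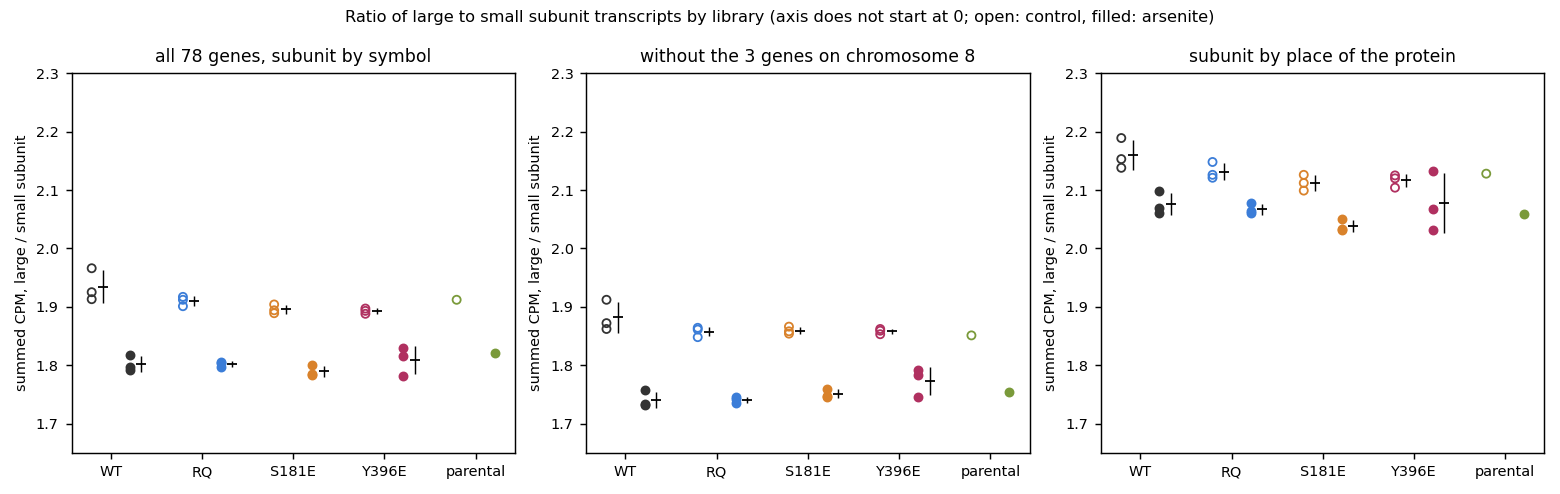
Ratio of the summed CPM of large to small subunit genes (y axis, which does not start at 0) per library, with all genes by symbol left, without the chromosome 8 genes in the middle and by the place of the protein right; open points are control, filled points arsenite libraries. Control libraries lie at 1.89 to 1.97 and arsenite libraries at 1.78 to 1.83 with all genes by symbol, and on the right the third Y396E arsenite library (2.133) lies among the control libraries.

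Genes around the mitochondrial ribosome were read from fixed lists in WT cells, where 36.3% of all tested genes were called higher and 35.9% lower. Of 5 further mitoribosomal proteins without MRP symbols, 2 rose and 3 fell (median log2 change -0.41). PTCD3, a pentatricopeptide repeat protein of the small subunit, rose from 46.9 ± 1.93 to 119 ± 1.52 CPM (log2 change 1.34, SE 0.05, edgeR adjusted p = 4.76e-17), and DAP3, a GTP-binding small subunit protein, rose by 0.40. CHCHD1 fell by 0.52 and AURKAIP1 fell by 0.45, and GADD45GIP1 was also lower. Of 25 tested genes of mitoribosome assembly and rRNA modification 11 rose and 4 fell (median 0.22), a share of higher genes near the background. Among them the helicase DHX30 went from 84.7 ± 6.31 to 216 ± 7.73 CPM (1.35, SE 0.05), and MALSU1, whose protein binds MRPL14 and keeps the subunits apart, went from 79.8 ± 3.5 to 37 ± 1.57 CPM (-1.11, SE 0.08). Both MALSU1 and its binding partner MRPL14 were thus lower.

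Of 14 mitochondrial translation factors 7 rose and 3 fell (median 0.29), led by the elongation factor GFM1 (1.03) and MTRFR (1.00) upward and MTRF1L (-0.55) and the formyltransferase MTFMT (-0.48) downward. Of 17 genes of mitochondrial RNA synthesis and stability 12 rose and 2 fell (median 0.66). LRPPRC, whose protein stabilises mitochondrial mRNAs, rose from 69.9 ± 5.13 to 295 ± 5.61 CPM (2.08, SE 0.06), while SLIRP, its partner in that complex, fell from 122 ± 12.6 to 76.4 ± 3.57 CPM (-0.67, SE 0.08). POLRMT, the mitochondrial RNA polymerase, rose by 1.61 and TFAM, which packages mitochondrial DNA, fell by 0.27. Of 7 regulators of mitochondrial gene transcription NRF1 (0.70) and GABPA (0.58) were among 3 that rose, and MYC fell from 512 ± 4.08 to 259.5 ± 3.64 CPM (-0.98, SE 0.05).

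Set beside other ribosome and respiratory genes, 72 of 76 cytosolic ribosomal protein genes fell and 0 rose (median -0.68), and 54 of 73 nuclear oxidative phosphorylation genes fell and 10 rose (median -0.51), against the 35 and 9 of the 73 mitochondrial ribosomal protein genes and a median of -0.23. The order of the 3 medians was the same in S181E cells (-0.47, -0.36 and -0.20) and in Y396E cells (-0.45, -0.33 and -0.18), and no difference between the lists was tested.

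**Figure D4:**
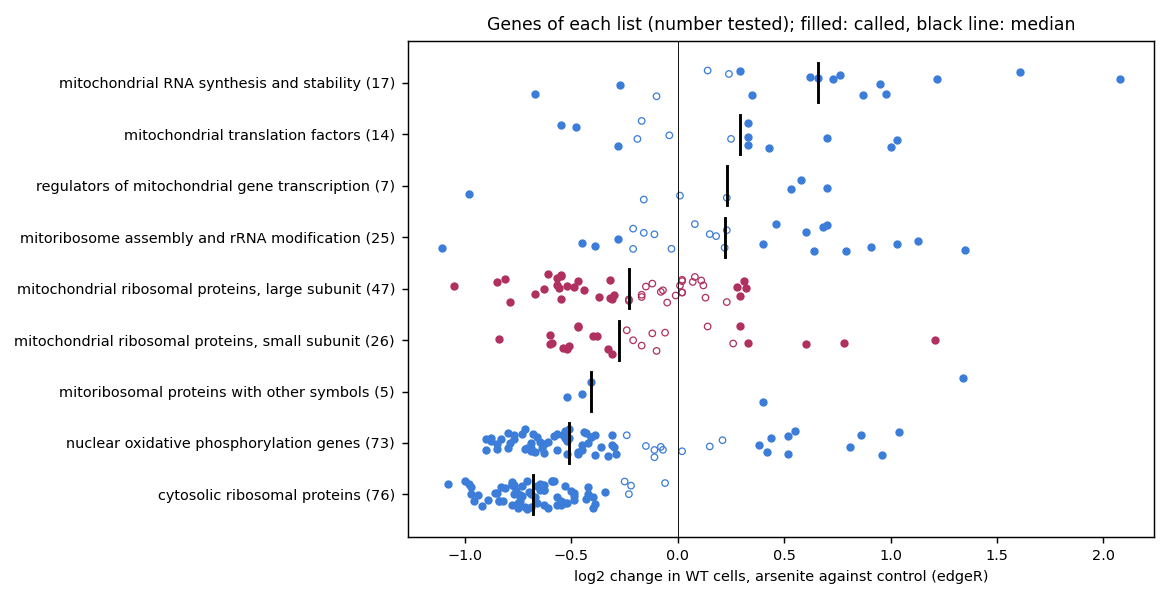
Log2 change after arsenite in WT cells (x axis, edgeR) of every tested gene of each list (y axis, number tested in brackets); filled points were called and the black line is the median. The mitochondrial ribosomal protein genes lie mostly left of 0, less far than the cytosolic ribosomal protein genes, whose median is -0.68.

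Between WT and the S181E or Y396E populations, 4 to 14 of the 73 genes were called per comparison in the main fit. In control cells 6 of the 73 genes were higher and 2 lower in S181E than in WT cells, against 15.7% and 15.4% of all tested genes, and 2 were higher and 2 lower in Y396E cells, against 14.5% and 14.2%. Both shares of higher genes lay below the background. After arsenite 3 were higher and 2 lower in S181E cells (background 5.32% and 8.42%), and 11 were higher and 3 lower in Y396E cells (background 9.77% and 11.9%). The share of higher genes in Y396E cells after arsenite (15.1%) lay above the background. The S181E and Y396E comparisons share the WT libraries. Medians were 0.05 (both subunits) in S181E and 0.08 (both subunits) in Y396E control cells, against 0.02 and 0.01 over all genes, and 0.11 (both subunits) and 0.11 (large) and 0.07 (small) after arsenite, against -0.01 and -0.00.

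On library totals, where the median of all genes moved to 0.18, 32 genes were higher and 1 lower in S181E control cells, and with a median of 0.14, 21 were higher and 1 lower in Y396E control cells. Shares of all tested genes called were taken only in the main fit. The counts in this paragraph thus have no background and are not a result about the set. Of the counts of all gene types, a wider total than these, the 78 genes held 0.699% to 0.722% in S181E control and 0.674% to 0.719% in Y396E control libraries. After arsenite the counts of higher and lower genes on library totals were 7 and 2 in S181E cells. With the length and GC trend removed, 2 were higher and 4 lower in Y396E arsenite cells and 4 higher and 2 lower in Y396E control cells. Without the third Y396E arsenite library, 11 were higher and 2 lower there. Leaving out the second S181E control library gave 3 calls in S181E control cells, 0 of them higher.

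MRPS34 and MRPS23, small subunit genes without bacterial counterparts, were each higher in 3 of the 4 comparisons. MRPS34 had 196, 203 and 196 CPM in WT, 243, 241 and 232 CPM in S181E and 245, 224 and 239 CPM in Y396E control libraries, a log2 difference of 0.27 for S181E (SE 0.04, edgeR adjusted p = 1.18e-05) and 0.25 for Y396E, below the fold limit. After arsenite it had 172, 173 and 171 CPM in WT, 225, 204 and 206 CPM in S181E and 219, 216 and 213 CPM in Y396E libraries (0.30 and 0.33). In both conditions every mutant library lay above every WT library. The calls were near the fold limit: with the length and GC trend removed the differences of MRPS34 after arsenite were 0.23 (S181E) and 0.18 (Y396E), neither of them called, and its S181E control difference was 0.25 and not called with only the groups compared. Leaving out 1 library also ended the S181E control call (0.25 to 0.26, without the first or the third WT control, the first or the second S181E control, or the third RQ, S181E or Y396E arsenite library) and the S181E arsenite call (0.25, without the first S181E arsenite library). MRPS23 had 133, 131 and 129 CPM in WT, 159.7, 165 and 153 CPM in S181E and 151, 156 and 163 CPM in Y396E control libraries (0.29, SE 0.05, for S181E and 0.26 for Y396E), and differences of 0.26 and 0.32 after arsenite. Its S181E control difference was 0.24 with the trend removed and 0.26 without the second S181E control library, not called in either, and its S181E arsenite difference was not called without the third WT (0.25), the first S181E (0.26) or the second S181E arsenite library (0.24).

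The parental control library had 221 CPM of MRPS34 and 169 CPM of MRPS23, nearer to the mutant than to the WT values. MRPL41 was higher after arsenite, with 70.1, 70.6 and 73.3 CPM in WT, 96.9, 90.2 and 85.7 CPM in S181E and 104, 95.1 and 91.4 CPM in Y396E libraries (0.35 and 0.44, SE 0.06 in each), with 0.26 and no call in Y396E cells once the trend was removed. In control cells its differences of 0.21 and 0.25 were below the fold limit. MRPL48 was higher in both mutants in control cells, with 37.2 ± 1.82 CPM in WT, 45.4 ± 2.31 CPM in S181E and 44.6 ± 1.64 CPM in Y396E libraries (SD, n = 3, log2 differences 0.29 and 0.26) and no overlap between mutant and WT libraries. With the trend removed the differences were 0.26 and 0.24 and not called. The Y396E call, at the fold limit, was also lost with DESeq2 or RLE size factors (0.26), a lower or no CPM filter (0.26 and 0.25) and only the groups compared (0.25). Scaling without the chromosome 8 stretch and chromosome M (0.25) ended it too, as did leaving out any of several libraries (0.23 to 0.25). The S181E call was lost without the first WT control (0.26) or the second S181E control library (0.25).

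The other higher genes were called in 1 comparison each. In S181E control cells MRPL44 (0.29, SE 0.07), MRPL16 (0.28, SE 0.11) and MRPL39 (0.28, SE 0.09) were higher. The MRPL16 call was near the limit of the adjusted p (edgeR, 0.0408). None of these 3 genes was called higher without the S181E control library of replicate 2. In Y396E control cells MRPS31 was higher (0.37, SE 0.07), with 17.8, 21.5 and 20.8 CPM against 16.1, 14.4 and 15.7 CPM in WT libraries. After arsenite in Y396E cells the remaining higher genes were MRPL21 (0.40), MRPL40 (0.34), MRPL54 (0.31), MRPL27 (0.30), MRPL58 (0.29), MRPL52 (0.28), MRPL36 (0.27) and MRPL23 (0.26), all of the large subunit. MRPL58 encodes a peptidyl-tRNA hydrolase built into that subunit. For MRPL40 the third Y396E arsenite library was the highest of the 3 (62.4 CPM, against 40.8 to 43.6 CPM in the WT arsenite libraries). Without it the differences of MRPL40 (0.23), MRPL58 (0.19), MRPL52 (0.25) and MRPL27 (0.26) were not called, and that of MRPL21 was 0.28. With the trend removed MRPS23 and MRPL27 were the only ones of the 11 higher genes still called. MRPS17 was lower in 2 comparisons, S181E control (-0.31, SE 0.10) and Y396E arsenite cells (-0.28, SE 0.10). It was not called on library totals in S181E control cells (-0.16, edgeR adjusted p = 0.168), nor without the third library in Y396E arsenite cells (-0.20, adjusted p = 0.145).

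**Figure D5:**
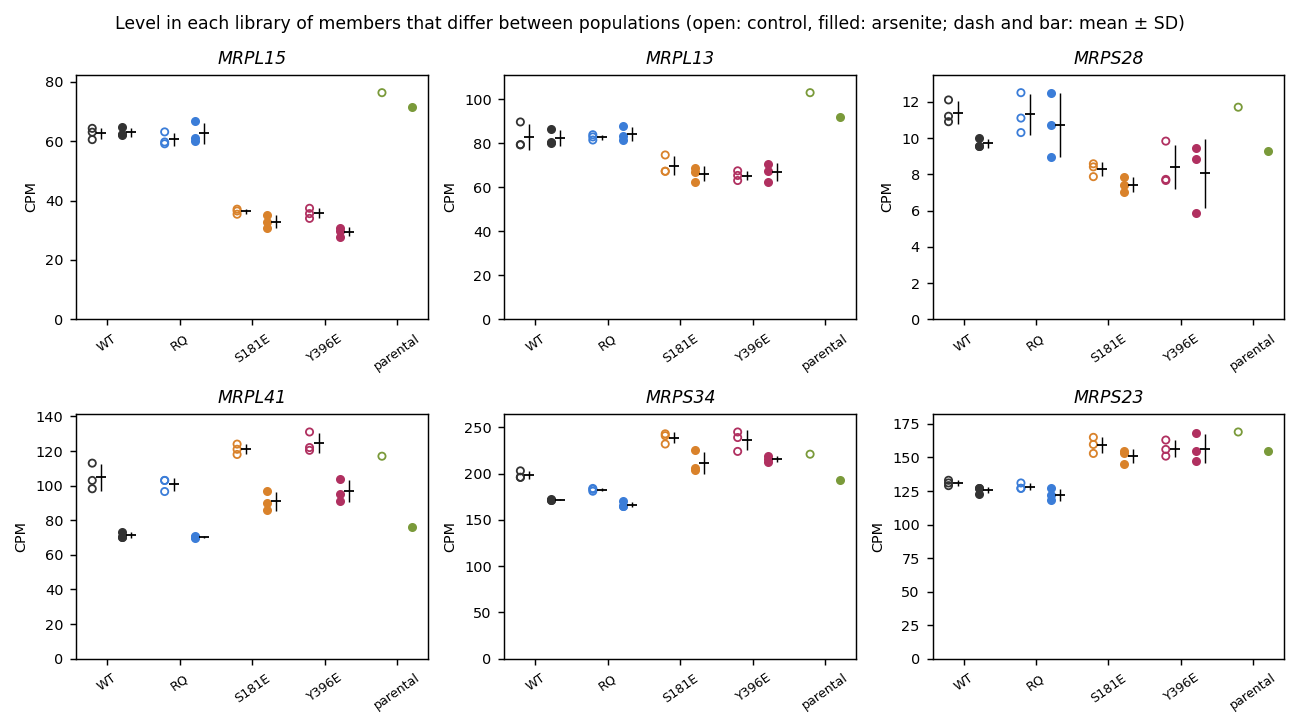
Levels (CPM, y axis from 0) of 6 genes that differ between populations in each library; open points are control, filled points arsenite libraries, the dash and bar mean and SD of 3 libraries. MRPL15 is lower in every S181E and Y396E library than in any WT or RQ library, and MRPS34 is higher.

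The 3 genes on the long arm of chromosome 8 are given apart, since transcripts of that stretch differed as a block. They are MRPL15 (chr8:54135241-54148514, + strand), MRPL13 (chr8:120395437-120445150, - strand) and MRPS28 (chr8:79918717-80030289, - strand; hg38). MRPL15 and MRPL13, homologs of bacterial L15 and L13, gave all falls of large subunit genes in the mutants. MRPL15 had 60.5, 64.3 and 63 CPM in WT, 35.4, 36.5 and 37.1 CPM in S181E and 34, 35.6 and 37.4 CPM in Y396E control libraries, with log2 differences of -0.78 (SE 0.06, edgeR adjusted p = 1.75e-10) and -0.81 (SE 0.06, adjusted p = 1.12e-10). After arsenite it had 62, 64.7 and 62.3 CPM in WT, 32.9, 35.2 and 30.6 CPM in S181E and 29.7, 30.8 and 27.8 CPM in Y396E libraries (-0.94 and -1.10). The mutant libraries lay far below the WT libraries in both conditions, while the RQ libraries (59.1 to 66.7 CPM over both conditions) overlapped the WT ones.

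MRPL13 differed less. Its levels were 79.3, 89.7 and 79.4 CPM in WT, 67.3, 74.7 and 67.3 CPM in S181E and 65.4, 63.1 and 67.5 CPM in Y396E control libraries, with log2 differences of -0.25 for S181E (adjusted p = 0.00144, below the fold limit, edgeR) and -0.34 for Y396E (adjusted p = 6.49e-05, but -0.21 and not called on library totals), and -0.32 and -0.30 after arsenite. MRPS28, under the filter and not tested, had 11.2, 12.1 and 10.9 CPM in WT, 7.87, 8.58 and 8.41 CPM in S181E and 7.66, 7.72 and 9.83 CPM in Y396E control libraries. All mutant control libraries were below all WT ones. It shares 42% of its exon bases with another gene. These lower levels stood among those of their neighbours: of 207 tested genes in the same stretch, whose gene starts run from 43140464, just before the centromere, to 145052467, 87.4% were called lower in S181E and 90.3% in Y396E control cells (medians -0.62 and -0.60), and 92.3% and 89.9% after arsenite (medians -0.57 and -0.60). In RQ cells 2 of them were lower in control and 0 after arsenite. The boundary of the stretch was set with earlier results of these data known, so these shares are a description. DNA copy number was not measured.

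RQ and WT cells did not differ in any of the 73 genes by the call rule. The count was 0 in control cells (edgeR, 8 genes at an unadjusted p under 0.05, and 0 by DESeq2) and 0 after arsenite (3 genes, and 0 by DESeq2), against 1.43% and 1.52% of all tested genes. The log2 differences lay between -0.17 and 0.21 in control and between -0.18 and 0.15 in arsenite cells, with a median SE of 0.06. For the arsenite response itself 0 genes differed between RQ and WT cells (1 at an unadjusted p under 0.05, 0 by DESeq2, background 0.22%).

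The responses to arsenite were also compared between the mutants and WT by the interaction term. For S181E 0 of the 73 genes were called (edgeR, 10 at an unadjusted p under 0.05, 1 by DESeq2), against 16.4% of all genes. For Y396E 3 were called, against 21.5% of all genes. MRPL52 fell less in Y396E than in WT cells: its levels went from 71.2, 81.3 and 68.8 to 50.7, 52.6 and 48.1 CPM in WT and from 74.4, 66.1 and 73.8 to 61.6, 57.8 and 65 CPM in Y396E cells (difference of log2 changes 0.33, SE 0.09, adjusted p = 0.0127). MRPL20 also fell less, from 149.8, 146 and 149 to 112, 100.5 and 102 CPM in Y396E cells (0.29, SE 0.07, adjusted p = 0.00433). MRPL15, on chromosome 8, was lower after arsenite in Y396E cells (-0.28) and not in WT cells (0.01), a difference of -0.29 (SE 0.08, adjusted p = 0.0167). Its fall within Y396E cells was not called without the third Y396E arsenite library (-0.21). On library totals (-0.22), with the trend removed (-0.14) or with only the groups compared (-0.26) that call was lost too. None of the 3 was called under every setting: MRPL52 and MRPL20 were not called on library totals (0.22 and 0.18) or with the trend removed (0.20 and 0.17), and MRPL15 was not called without the third Y396E arsenite library (-0.22).

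Y396E and S181E cells, compared directly, did not differ in any of the 73 genes by the call rule. The count was 0 in control (edgeR, 1 gene at an unadjusted p under 0.05, 0 by DESeq2) and 0 after arsenite (6 genes, 0 by DESeq2), and 0% of all tested genes were called in either condition. A count of 0 does not show that the populations are alike.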

How the data were processed

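Poly(A) RNA-Seq of 26 HCT116 libraries was used. The deposited files hold raw counts per gene: per the file headers the authors counted reads with featureCounts (Subread 2.0.6), per exon and by strand, on GENCODE 46 basic, after alignment with STAR 2.7.11b to hg38. Reads hitting several genes or places were not counted. Symbols, gene types and positions came from GENCODE 44, which matched 62541 of 63086 identifiers (99.1%). The 24 transgenic libraries were fitted in one model (edgeR 4.0.16 quasi-likelihood test, R 4.3.3, TMM scaling factors 0.866 to 1.08) on 9099 protein-coding genes with CPM above 10 in at least 12 libraries. Benjamini-Hochberg adjusted p-values were taken over all of them, and a call needed an adjusted p under 0.05 and a fold change above 1.2. DESeq2 1.42.0, other scalings, filters, fold limits, a length and GC trend correction, a replicate block and left-out libraries were tried. The fit was tested on simulated data. CPM is on TMM-scaled totals of protein-coding counts, and library totals as a setting are those totals without the TMM factors. The p-values measure the spread between dishes of 1 population.

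The members and lists were chosen with earlier results of these data known. Named by rule were, per comparison and subunit, the called genes with the 3 largest rises and falls, the genes under the filter, those in the chromosome 8 stretch, the 3 highest and 3 lowest levels, and the 2 leading genes of each list and direction. Others were named after their values were seen.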

Additional observations from a re-analysis of the deposited data

Results flagged for a closer look

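The arsenite response differed between Y396E and WT cells in 3 genes by the interaction term of edgeR. MRPL52 fell less in Y396E cells (difference of log2 changes 0.33, adjusted p = 0.0127), and the difference was 0.20 with the length and GC trend removed, 0.22 on library totals and 0.25 without the second WT control library, not called in any of the 3. MRPL20 fell less in Y396E cells (0.29, adjusted p = 0.00433), with 0.17 and 0.18 under the same corrections and 0.24 without the second WT control library, again not called. For MRPL15 the difference was -0.29 (adjusted p = 0.0167), and it was not called without the third Y396E arsenite library (-0.22). It was also not called without the first WT control (-0.26), the third Y396E control (-0.25) or the third RQ or S181E arsenite library (-0.26 in each). With only the groups compared in the fit MRPL52 (0.33) and MRPL15 (-0.28) were not called either. The cause was not tested.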

How the results depend on the processing

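Without a fold limit the numbers of genes called were 54 (arsenite in Y396E), 28 (S181E against WT in control), 20 (Y396E in control), 1 (RQ in control), 16 (S181E in arsenite), 30 (Y396E in arsenite), and 3 and 7 for the response differences of S181E and Y396E. With a limit of 1.5-fold they were 14, 17, 7 and 8 for arsenite in WT, RQ, S181E and Y396E, 1 in each of the 4 comparisons of S181E or Y396E with WT, and 0 for the response difference of Y396E. The response difference counts of S181E and Y396E were 1 and 5 with RLE size factors and with DESeq2, 3 and 6 on library totals, and 1 and 1 with only the groups compared in the fit. On library totals S181E against WT had 33 calls in control and 9 in arsenite, and Y396E in control 22. With scaling factors computed without chromosome 8 past the boundary and chromosome M, S181E in control had 5 and the response difference of Y396E 5. With the length and GC trend removed Y396E in arsenite had 6, and MRPL13 after arsenite in WT turned from -0.01 to 0.29; the adjusted length and GC values are by construction relative to the trend over all genes. With the subunits taken by the place of the protein, the large to small ratio in arsenite minus control libraries was -0.08, -0.06, -0.07 and -0.04 in WT, RQ, S181E and Y396E cells, against -0.13, -0.11, -0.11 and -0.08 by symbol. Shares of all tested genes called were taken only in the main fit, so the counts under other settings have no background. The cause of the other shifts was not tested.

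Leaving out 1 library gave 41 to 46, 41 to 45, 34 to 39 and 31 to 38 calls for arsenite in WT, RQ, S181E and Y396E, 12 to 19 for Y396E in arsenite, and 0 for every RQ comparison with WT and for Y396E against S181E in control. It gave 3 (without the second S181E control library) to 9 for S181E in control, 3 to 7 (without the second Y396E control library) for Y396E in control, 3 (without the first) to 8 (without the third S181E arsenite library) for S181E in arsenite, 0 to 3 (without the third Y396E arsenite library) for the response difference of S181E, 1 (without the second WT control library) to 10 (without the second Y396E arsenite library) for that of Y396E, and 0 to 3 (without that same library) for Y396E against S181E in arsenite. Of 2208 leave-out values of 92 named results 2152 kept direction and call, 50 lost and 6 gained the call, and 0 reversed. Of 1104 values under the other 12 settings 1024 kept both, 73 lost and 6 gained the call, and 1 reversed.

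Replicate numbers were shared between groups, and 23 of 24 libraries correlated best with their own number. The correlations were mostly low (mean 0.09 for one number, -0.045 for others, 11 of 30 pairs over 0.1), but reached 0.525 between a mutant and WT. Samples of one number thus deviated together to some degree, and the main fit held no replicate block. With the replicate block the response difference of S181E had 1 call, and no other count moved by more than 1.5 times. With 3 dishes per group from 1 population each, differences between populations cannot be ascribed to the mutation, and genes of few counts such as MRPS24 and MRPL46 could not be tested.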

Other observations

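The genes named after a bacterial ribosomal protein (44 of 78) and the others (34) were compared after the values had been seen, as counts only. In WT cells 21 of 42 tested genes with bacterial names fell after arsenite and 4 rose (median log2 change -0.28), and 14 of 31 others fell and 5 rose (median -0.21), where 35.9% of all tested genes were called lower and 36.3% higher. In Y396E against WT cells after arsenite 7 of the 31 others were higher and 0 lower, and 4 of the 42 genes with bacterial names were higher and 3 lower, where 9.77% of all tested genes were called higher and 11.9% lower. The difference was not tested. Across the 73 genes Spearman's rho of the Y396E against WT difference after arsenite with GC content was 0.50, and over all 9099 genes 0.26, a description across genes that share libraries.

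IGF2BP2 and IGF2BP3 transcripts were still counted in the 4 populations (61.5 to 90.1 CPM and 107 to 164 CPM). The parental control and arsenite libraries had 119 and 149 CPM of IGF2BP2, above every library of the 4 populations, and 91 and 109 CPM of IGF2BP3.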
